A study of Arabidopsis thaliana with 6 samples.

Results

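The genes described are 10 of the 24267 genes in the read count table of wild-type Arabidopsis thaliana (Columbia) seedlings, and all 10 had counts. They were chosen by gene identifier as core regulators and uptake genes of the iron deficiency response: BHLH38 (AT3G56970), BHLH39 (AT3G56980), BHLH100 (AT2G41240), BHLH101 (AT5G04150), FIT (AT2G28160), PYE (AT3G47640), BTS (AT3G18290), IRT1 (AT4G19690), FRO2 (AT1G01580) and FRO3 (AT1G23020). RNA was sequenced from 2 libraries in each of 3 groups, which shared the wild-type genotype. These were 10 nM melatonin (MT), 1 nM IAA (indole-3-acetic acid, a natural auxin), and a control on medium with only the ethanol solvent. Seedlings that were 4 days old had been moved to plates with these additions, on which they stayed for 72 h. The sample labels speak of seedlings and the design text of rosette leaves, and neither states whether the replicates of a group were grown apart. Each p therefore rests on the spread between libraries, and this spread could be technical.

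Plants other than grasses take up iron by reducing it at the root surface. FRO2, a ferric chelate reductase of the root epidermis, supplies the ferrous iron that the transporter IRT1 carries into the cell. Transcription of both genes is switched on under iron deficiency by FIT, a basic helix-loop-helix (bHLH) protein that acts in dimers with one of the 4 bHLH proteins of subgroup Ib, BHLH38, BHLH39, BHLH100 and BHLH101. The Ib genes are themselves among the transcripts that rise most in iron-starved plants, in roots and leaves, and are targets of the bHLH proteins of subgroup IVc and of BHLH121. PYE, another bHLH protein, represses iron distribution genes, and BTS is a ubiquitin ligase that limits the response by removing IVc proteins. The Murashige and Skoog medium used here is a complete medium that contains chelated iron.

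The libraries held 35953236 to 46076624 counts. Values per library are CPM, counts scaled to a common library size with edgeR's TMM factors, with no correction for gene length, so levels are compared within a gene only. All 10 root markers and all 8 leaf markers listed had counts in each library, with no marker at 0. The root markers summed to 142 CPM in each MT library, to 192 and 185 CPM with IAA, and to 185 and 145 CPM in the control libraries. Abundant markers weigh most in a sum, and the geometric mean over the root markers was 8.33 and 8.90 CPM with MT, between the 10.4 and 7.15 CPM of the controls, and 11.2 and 10.9 CPM with IAA. The leaf markers summed to 22691 and 19953 CPM with MT, to 18778 and 17987 CPM with IAA, and to 23616 and 24754 CPM in the controls, sums led by the abundant RBCS1A and RCA. Their geometric mean was 619 and 524 CPM with MT, 476 and 433 CPM with IAA, and 524 and 555 CPM in the controls. With MT against control the leaf markers had a median log2 fold change of 0.05. Of the 8, 3 stood above and 3 below the control without overlap, and LHCA1 was called higher. Over all genes tested, 55.5% did not overlap in either direction and 3.99% were called higher. In RNA of whole seedlings, fewer cells of a type and less RNA per cell cannot be told apart.

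MT against control addressed the effect of melatonin, which is an indole like IAA, on transcript levels. Of the 10 genes, BHLH101 rose with MT, 7 did not pass the test, and BHLH38 and BHLH100 had too few counts to be tested. BHLH101 had 42 and 45 counts in the MT libraries, 18 and 3 counts in the IAA libraries, and 2 and 3 counts in the control libraries. Both MT libraries stood above the other 4, while the IAA libraries were split, the second being at the control level. Scaled for depth, BHLH101 averaged 1.16 ± 0.0334 CPM with MT and 0.0681 ± 0.0173 CPM in the control (SD, n = 2 each). The fitted log2 fold change of 4.03 ± 0.88 (SE) had a 95% interval from 1.94 to 6.12 (adjusted p = 0.0417, edgeR's quasi-likelihood test). From summed counts of 87 with MT and 5 in the control, the ratio was 17.0, with a 95% interval of 7.02 to 53.7 that covers counting error only. The call of BHLH101 is 1 of 8 tested genes, beside 3.99% of all 21355 genes tested called higher with MT and 7.65% called in either direction. It was also the 1 gene of the 8 with an unadjusted p under 0.05, which 25.2% of all genes tested had. BHLH101 passed the filter on low counts through its MT libraries, so that it was tested at all depended on the group in which it was high.

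**Figure D1:**
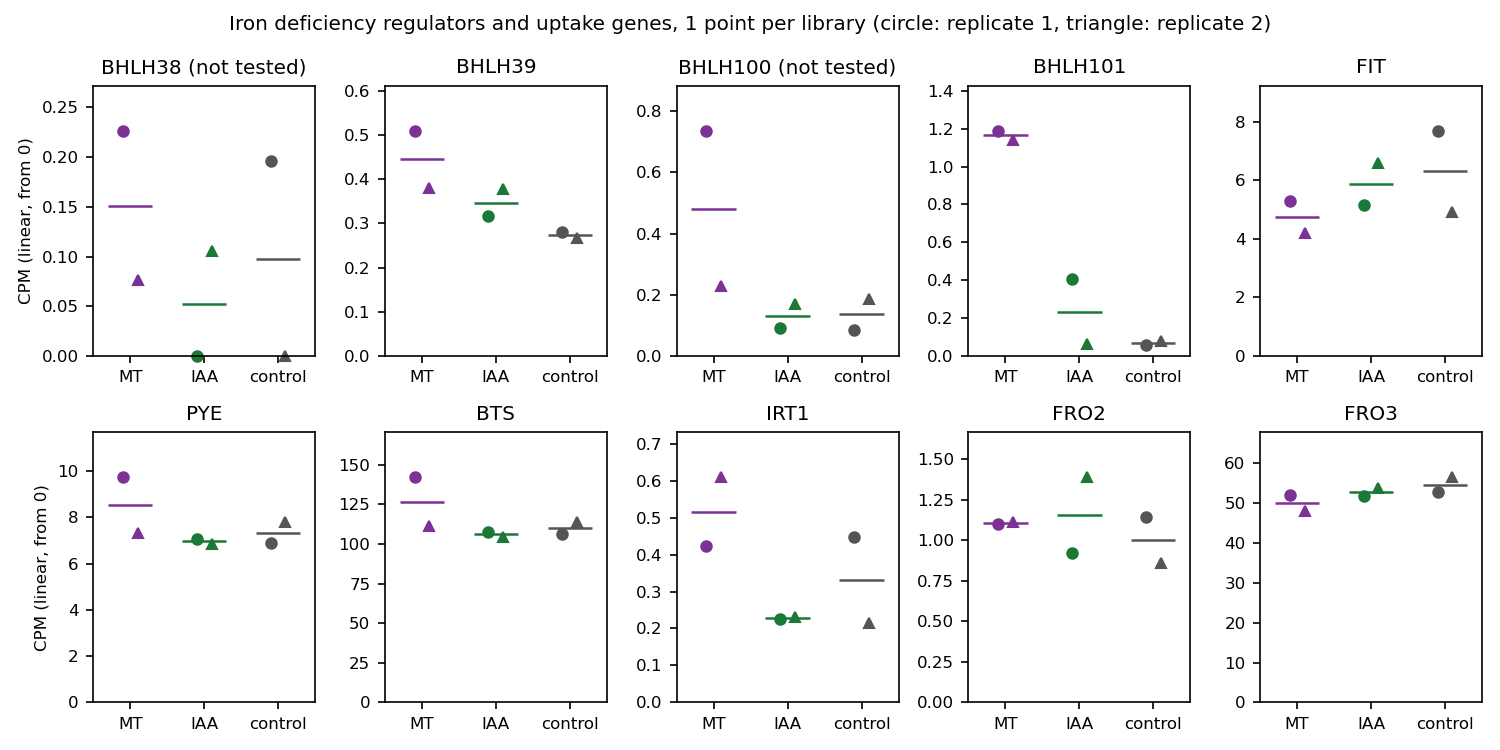
CPM (vertical axes, linear from 0) of the 10 genes in each library, grouped as MT, IAA and control, with circles for replicate 1, triangles for replicate 2 and bars for group means. BHLH101 stands at 1.19 and 1.14 CPM in the MT libraries and at 0.0559 and 0.0803 CPM in the controls, while the FRO3 libraries lie between 47.9 and 56.4 CPM.

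The fold change of BHLH101 moved little between settings, while its adjusted p fell on both sides of the threshold. All settings reuse the same counts, so the steady fold change is no separate support. Over 14 settings that gave an adjusted p the log2 fold change ran from 3.81 to 4.31 and the adjusted p from 0.00202 to 0.162, with 9 of them under 0.05. The call was lost when any control or MT library was left out: the adjusted p was 0.162 and 0.145 when the first or the second control library was left out, and 0.117 and 0.0909 for the MT libraries in the same order. With the replicate number as a block it was 0.0517. The annotated gene model of BHLH101 overlaps that of GLU1 (AT5G04140), a ferredoxin-dependent glutamate synthase, and whether reads were counted by strand is not given in the sources used here. GLU1 had 2286 and 1633 CPM with MT, against 2133 and 2121 CPM in the control (log2 fold change -0.12 ± 0.16, adjusted p = 0.692 in edgeR's test). The part of reads from the shared stretch in the counts of BHLH101 was not tested.

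**Figure D2:**
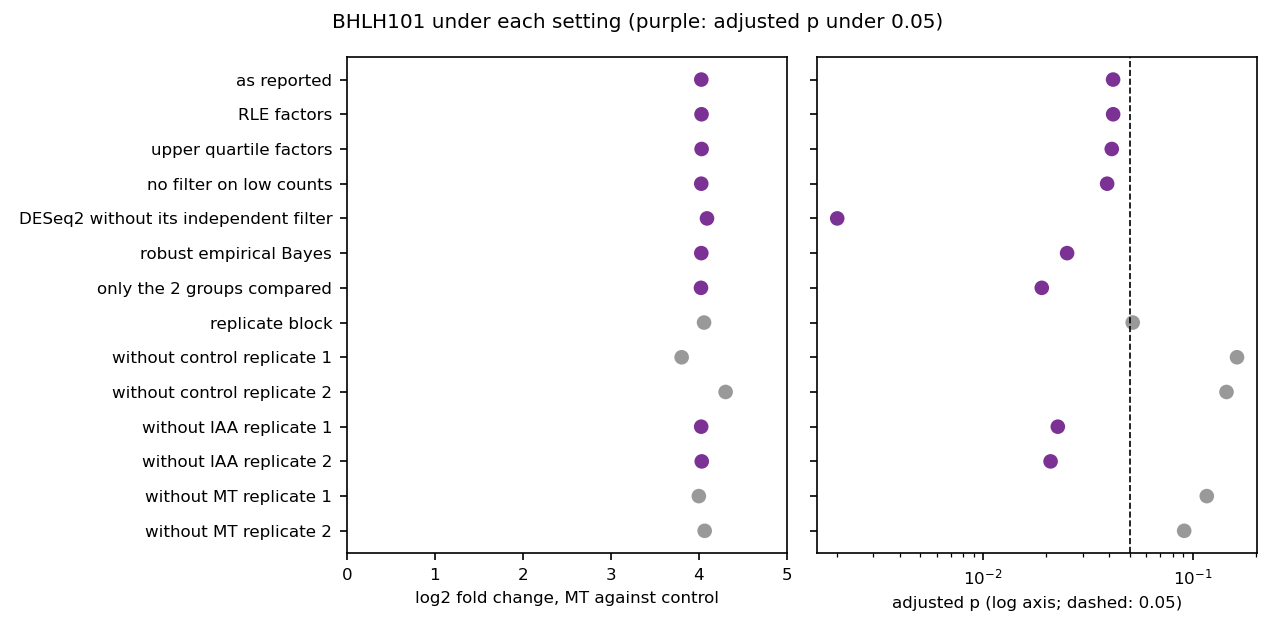
Log2 fold change of BHLH101, MT against control (left, linear axis), and its adjusted p (right, log axis) under each setting that gave this p. The dashed line is at 0.05, and purple marks an adjusted p under it. DESeq2 with its independent filter gave BHLH101 no adjusted p and is not shown. The fold change lies between 3.81 and 4.31 in each, and the grey settings are the replicate block and the 4 that leave out a control or MT library.

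The other Ib genes were near the lower limit of what this depth can show. BHLH100 had 26 and 9 counts with MT, 4 and 8 with IAA, and 3 and 7 in the control. Its MT libraries lay above both other groups, though the lower of them exceeded the higher control library by only 2 counts and the higher IAA library by 1. The ratio of summed counts, 35 with MT against 10 in the control, was 3.42 (95% counting interval 1.66 to 7.75). Tested without a filter on low counts, BHLH100 had a log2 fold change of 1.79 ± 0.91 with MT and an adjusted p of 0.300 in edgeR's test. BHLH39 had 18 and 15 counts with MT, 14 and 18 with IAA, and 10 and 10 in the control. Both treated groups lay above the control without overlap in CPM, beside 55.5% of all tested genes that did not overlap between MT and control and 48.4% that did not between IAA and control, in either direction. Its log2 fold change with MT was 0.69 ± 0.50 (95% interval -0.51 to 1.89, adjusted p = 0.443). BHLH38, the neighbour of BHLH39 on chromosome 3, had 8 and 3 counts with MT, 0 and 5 with IAA, and 7 and 0 in the control, with overlap throughout. A count of 0 in a library allows up to 3 counts, or 0.0676 CPM in IAA replicate 1 and 0.0803 CPM in control replicate 2. BHLH38 and BHLH39 are close copies of each other, so reads could be split between them, and the model of BHLH38 overlaps that of PIP5K4 (AT3G56960).

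Taken as a sum, the reads of the 4 Ib genes made up 2.66 and 1.83 CPM with MT, 0.812 and 0.715 CPM with IAA, and 0.615 and 0.536 CPM in the control. Without BHLH101 the remaining 3 genes summed to 1.47 and 0.684 CPM with MT, 0.406 and 0.652 CPM with IAA, and 0.559 and 0.455 CPM in the control. In this smaller sum MT replicate 1 stood high, while MT replicate 2 was 0.684 CPM beside 0.652 CPM in IAA replicate 2.

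**Figure D3:**
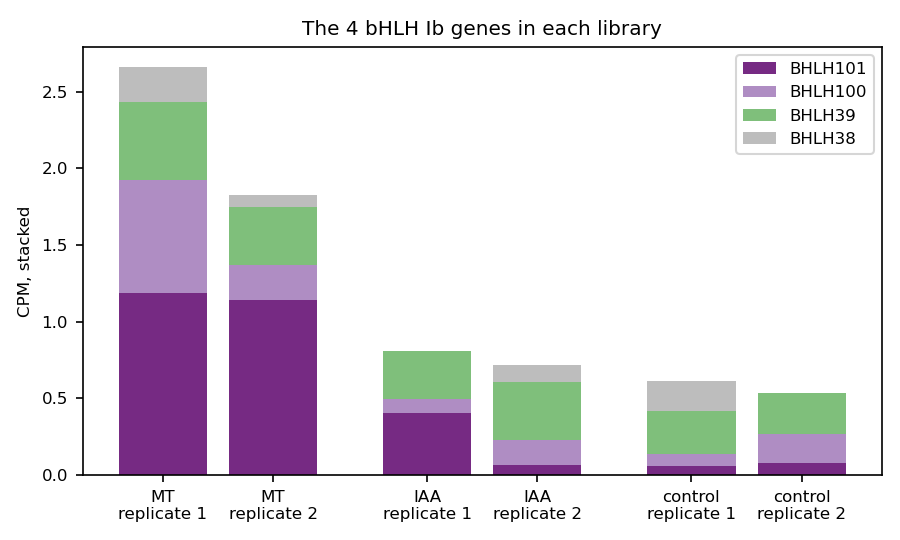
Stacked CPM of BHLH101, BHLH100, BHLH39 and BHLH38 in each library (vertical axis linear from 0, reads not scaled by gene length). The MT bars reach 2.66 and 1.83 CPM and the control bars 0.615 and 0.536 CPM, and BHLH101 gives 1.14 of the 1.83 CPM in MT replicate 2.

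FIT, the partner of the Ib proteins, was not among the genes that passed. Its levels were 5.29 and 4.21 CPM with MT, 5.14 and 6.60 CPM with IAA, and 7.69 and 4.93 CPM in the control, and the 3 groups overlap. The control libraries alone differed by more than the group means. Its log2 fold change with MT was -0.41 ± 0.26 (95% interval -1.04 to 0.22, adjusted p = 0.383 in edgeR's test).

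The uptake genes that FIT activates were scarce. IRT1 had 15 and 24 counts with MT, 10 and 11 with IAA, and 16 and 8 in the control, or 0.424 and 0.608 CPM, 0.225 and 0.231 CPM, and 0.447 and 0.214 CPM. The MT and control libraries overlap, and the log2 fold change with MT was 0.65 ± 0.56 (95% interval -0.69 to 1.98, adjusted p = 0.523). FRO2 had 39 and 44 counts with MT, 41 and 66 with IAA, and 41 and 32 in the control. In CPM these libraries overlap too, at 1.10 and 1.12 with MT, 0.924 and 1.39 with IAA, and 1.15 and 0.857 in the control (MT against control 0.15 ± 0.36 on the log2 scale, adjusted p = 0.836). The interval of IRT1 with MT includes both a 2-fold rise and no change. IRT1 and FRO2 are next to their relatives IRT2 and FRO1 on the chromosome.

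The genes of the PYE network had more reads and the narrowest intervals. PYE had 9.73 and 7.33 CPM with MT, 7.08 and 6.85 CPM with IAA, and 6.90 and 7.79 CPM in the control (MT against control 0.21 ± 0.18, adjusted p = 0.510 in edgeR's test). BTS had 142 and 111 CPM with MT, 108 and 105 CPM with IAA, and 107 and 114 CPM in the control. For both genes MT replicate 1 was the highest of the 6 libraries, and MT replicate 2 fell within or near the range of the controls. The log2 fold change of BTS with MT was 0.20 ± 0.12 (95% interval -0.09 to 0.49, adjusted p = 0.361). FRO3, a ferric reductase found in mitochondria whose gene is bound by PYE, had 51.9 and 47.9 CPM with MT, 51.8 and 53.8 CPM with IAA, and 52.7 and 56.4 CPM in the control. Its MT libraries lay below the controls, with a log2 fold change of -0.13 ± 0.08 (95% interval -0.32 to 0.06, adjusted p = 0.362). The FRO3 model overlaps that of LPR1 (AT1G23010), a ferroxidase, which had 12.4 and 10.5 CPM with MT against 11.4 and 10.1 CPM in the control.

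**Figure D4:**
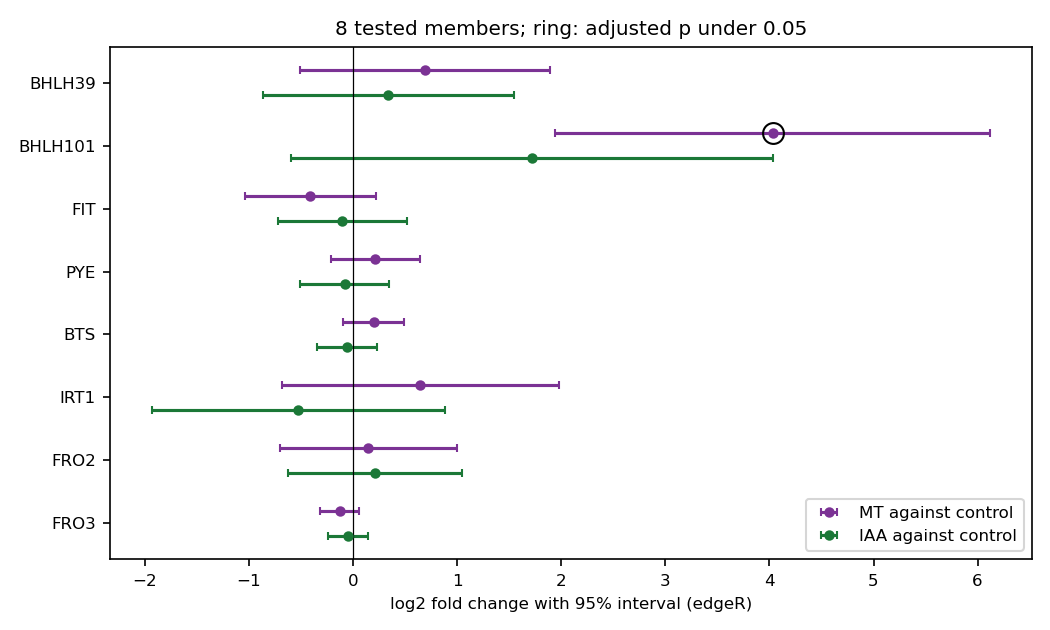
Log2 fold changes with 95% intervals of the 8 tested genes (rows), MT against control in purple above IAA against control in green, from edgeR, with a ring at adjusted p under 0.05. BHLH101 with MT is the ringed value, at 4.03, and the intervals of BTS and FRO3 are the narrowest.

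With IAA against control 0 of the 8 tested genes passed in edgeR's test, 0 reached an unadjusted p under 0.05, and the DESeq2 test called 0 while giving 3 of them no adjusted p. Over all genes tested 0.332% were called with IAA and 14.3% had an unadjusted p under 0.05. Among genes with an adjusted p in DESeq2, 3.95% were called. BHLH101 had the highest value, 1.72 ± 0.97 (adjusted p = 0.481), which rested on IAA replicate 1: without that library it was -0.11. IRT1 had -0.52 ± 0.59 (95% interval -1.93 to 0.88), BHLH39 0.34 ± 0.51 and FRO2 0.21 ± 0.35. FIT had -0.10 ± 0.26, PYE -0.08 ± 0.18, BTS -0.06 ± 0.12 and FRO3 -0.05 ± 0.08. Of these, the sign of FIT, PYE, IRT1, FRO2 and FRO3 turned when 1 control or IAA library was left out. The median log2 fold change of the 8 tested genes was -0.05 with IAA and 0.21 with MT, beside 0.00 over all genes tested in both comparisons. These comparisons share the control libraries. BHLH101 and IRT1 passed the filter on low counts only with their MT libraries. Both medians depend in part on that filter and are a description only.

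Set directly against IAA, at doses that were not matched, 0 of the 8 tested genes passed with MT in edgeR's test, 1 reached an unadjusted p under 0.05, and the DESeq2 test called 0 while giving 4 of them no adjusted p. Over all genes tested 0.173% were called in this comparison, 17.4% had an unadjusted p under 0.05 and 50.4% did not overlap between the 2 groups, and DESeq2 called 7.06% of the genes it gave an adjusted p. BHLH101 was the gene with the small unadjusted p, with 2.31 ± 0.72 (95% interval 0.59 to 4.03, adjusted p = 0.192). Without IAA replicate 1 this value was 4.14 (adjusted p = 0.184) and without IAA replicate 2 it was 1.51 (adjusted p = 0.522). The rise of BHLH101 with MT is thus not shown to differ from its value with IAA. IRT1 had 1.17 ± 0.57 (95% interval -0.18 to 2.52) and BTS 0.25 ± 0.12 (95% interval -0.03 to 0.54). Both stood higher with MT than with IAA in each library, as did BHLH39, PYE and BHLH101. That is 5 of 8, beside 24.3% of all genes tested. For BHLH39 the nearest libraries were 0.380 CPM with MT and 0.378 CPM with IAA. BHLH101 and IRT1 would not have passed the filter on low counts without their MT libraries. The count of 5 thus depends in part on that filter and is a description only.

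Iron genes outside the 10 were read from 4 lists with 59 genes, of which 54 were tested. With MT 3 of the 54 rose and 1 fell, beside 3.99% of all genes called higher and 3.65% called lower. An unadjusted p under 0.05 was reached by 15 of the 54, beside 25.2% of all genes. DESeq2 called 11 of the 49 it gave an adjusted p, beside 15% of all genes with one. Of 16 tested regulators 0 rose and 1 fell. The one that fell was BHLH121 (AT3G19860), a bHLH protein that activates Ib genes together with the IVc proteins. BHLH121 had 49.7 and 50.2 CPM with MT, 60.0 and 64.0 CPM with IAA, and 71.2 and 81.4 CPM in the control, and the 3 groups did not overlap. Its log2 fold change with MT was -0.61 ± 0.09 (adjusted p = 0.0118 in edgeR's test), a call lost without control replicate 2 (adjusted p = 0.0533) and without MT replicate 1 (0.0512). With IAA the value was -0.30 ± 0.09 (adjusted p = 0.229). BHLH121 was lower than in the control in both the MT and the IAA libraries, while the Ib gene BHLH101 was called higher with MT only. A link between these genes was not tested.

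The next regulator by p was AT2G30766, for which the annotation used gives no symbol. It had 17.5 and 6.03 CPM with MT, 2.55 and 1.95 CPM with IAA, and 3.74 and 4.63 CPM in the control. The groups did not overlap, yet MT replicate 1 was far above replicate 2, and the log2 fold change with MT was 1.48 ± 0.46 (adjusted p = 0.103). Without MT replicate 1 it was 0.53 (adjusted p = 0.340), without MT replicate 2 it was 2.07 (0.00994), and DESeq2 gave 1.49 (0.00865).

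In the list named uptake, which also holds further genes of the FRO family, 1 of 12 tested genes rose and 0 fell with MT. Over all genes tested 3.99% were called higher and 3.65% lower. An unadjusted p under 0.05 was reached by 6 of the 12 in edgeR's test, beside 25.2% of all genes. Of these, FRO8 (log2 fold change 0.61) and F6'H1 (0.41) were higher with MT. IRT2 (-0.54), IRT3 (-0.41), ABCG37 (-0.35) and AHA2 (-0.27) were lower. All but FRO8 and IRT3 were named after their values were seen. DESeq2 called 3 of the 12, which were FRO8, IRT3 and AHA2, beside 15% of all genes with an adjusted p. Whether FRO8, the gene that passed edgeR's test, acts in uptake was not tested. FRO8 (AT5G50160), of the ferric reductase family, had 62.3 and 54.3 CPM with MT, 39.7 and 35.3 CPM with IAA, and 37.9 and 38.6 CPM in the control (0.61 ± 0.10, adjusted p = 0.0178). IRT3 (AT1G60960), a zinc and iron transporter, had 23.6 and 21.4 CPM with MT against 31.8 and 28.2 CPM in the control (-0.41 ± 0.12, adjusted p = 0.0883 in edgeR's test and 0.0426 in DESeq2). The uptake list had a median of -0.17 with MT. Its values stand beside root markers that had a median of -0.13, with 0 of 10 called, 3 below the control without overlap and 2 above (PLT1 at 0.61 and PLT2 at 0.78), beside 55.5% of all genes without overlap in either direction. The part of the markers in these values was not tested.

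In the list of iron movement inside the plant 2 of 18 tested members rose and 0 fell with MT. Over all genes tested 3.99% were called higher and 3.65% lower. An unadjusted p under 0.05 was reached by 5 of the 18 in edgeR's test, near the 25.2% of all genes. DESeq2 called 4 of the 16 it gave an adjusted p, beside 15% of all genes with one. ZIF1 (AT5G13740), a vacuolar membrane carrier that moves nicotianamine, the chelator of iron and zinc, had 51.8 and 44.3 CPM with MT against 30.9 and 30.7 CPM in the control (0.64 ± 0.11, adjusted p = 0.0184). NRAMP4 (AT5G67330), which releases iron from the vacuole, had 41.2 and 38.9 CPM with MT against 29.2 and 30.6 CPM in the control (0.42 ± 0.09, adjusted p = 0.0422). The call of FRO8 was lost without control replicate 1, control replicate 2 or MT replicate 1, as was that of ZIF1. NRAMP4 was called in 7 of 15 settings.

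Of 8 tested storage genes 0 passed with MT in edgeR's test and 2 reached an unadjusted p under 0.05. A share of 25.2% of all genes tested had such a p, so these 2 of 8 are near that background. DESeq2 called the same 2, of 6 it gave an adjusted p, beside 15% of all genes with one. The 2 genes were FER1 (AT5G01600), a plastid ferritin that rises when iron is ample, and VTL5 (AT3G25190), of the vacuolar iron transporter-like family. FER1 had 338 and 410 CPM with MT, 330 and 350 CPM with IAA, and 266 and 287 CPM in the control (MT against control 0.44 ± 0.11, adjusted p = 0.0678). VTL5 had 8.17 and 8.39 CPM with MT against 15.8 and 11.3 CPM in the control (-0.71 ± 0.18, adjusted p = 0.0602).

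With IAA 0 of the 54 listed genes passed in edgeR's test, 12 reached an unadjusted p under 0.05 beside 14.3% of all genes, and DESeq2 called 3 of 49 with an adjusted p beside 3.95%. These 3, named after their values were seen, were AT1G74770 (0.62 ± 0.13, adjusted p = 0.139 in edgeR's test), FRO5 (AT5G23990) (1.00 ± 0.23, 0.166) and F6'H1 (AT3G13610), an enzyme of coumarin synthesis (0.71 ± 0.16, 0.158). Root markers had a median of 0.30 with IAA, with 6 of 10 above and 0 below the control without overlap (48.4% of all genes did not overlap, in either direction) and 0 called, and their part in these values was not tested. In MT against IAA 0 of the 54 passed and 16 reached an unadjusted p under 0.05, beside 17.4% of all genes. DESeq2 called 11 of 42 with an adjusted p, beside 7.06%. Those not named before were named after their values were seen. In edgeR's fit FRO8, ZIF1, OPT3 (AT4G16370) and AT2G30766 were higher with MT. IRT2 (AT4G19680), FRO4 (AT5G23980), FRO5, AHA2 (AT4G30190), ABCG37 (AT3G53480), AT1G74770 and NAI1 (AT2G22770) were lower. Root markers had a median of -0.51 here, with 0 of 10 called. Of these, 1 stood above and 7 below IAA without overlap, beside 50.4% of all genes in either direction. Their part was not tested.

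**Figure D5:**
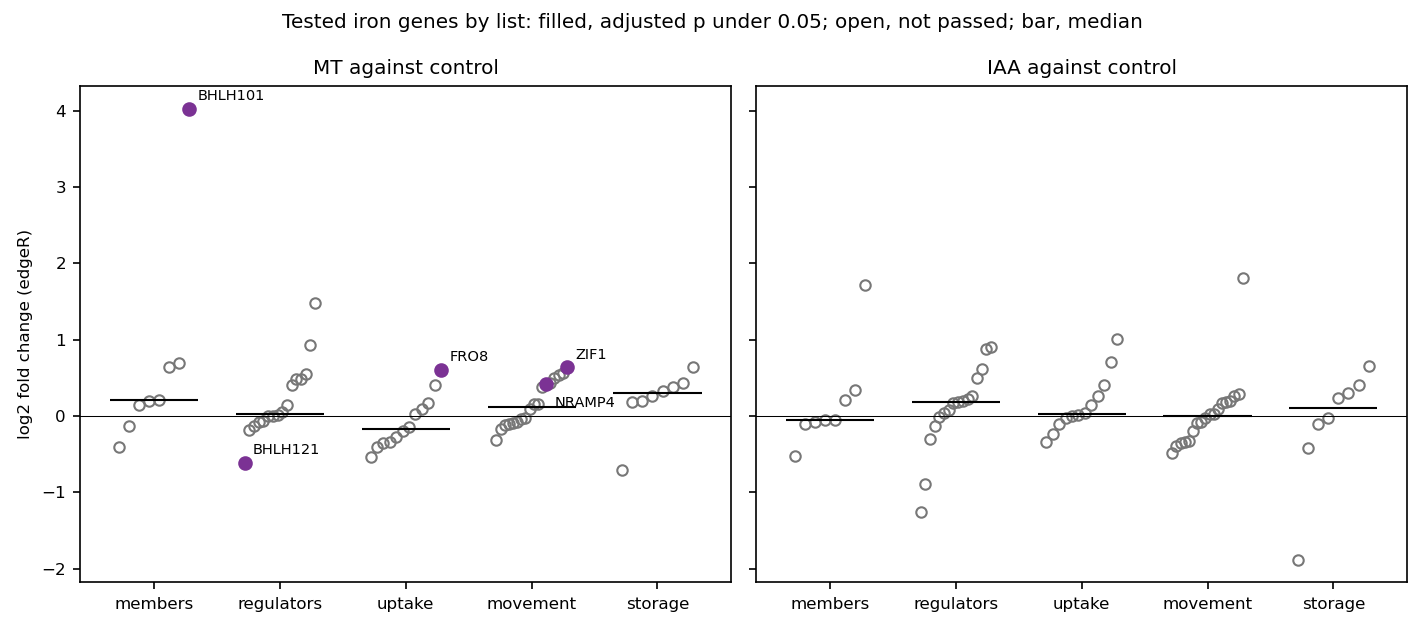
Log2 fold changes (vertical axis, shared) of the 8 tested genes of the core set (members) and of the tested genes in 4 further iron lists, MT against control on the left and IAA against control on the right. Filled points had an adjusted p under 0.05 and bars are medians: with MT BHLH101, FRO8, ZIF1 and NRAMP4 were higher and BHLH121 lower, and with IAA no point is filled.

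The genes whose pattern was most like that of the Ib genes were sought among 18302 tested genes that averaged 2 CPM or more. Likeness was the root mean square difference between centred log2 CPM values over the 6 libraries. The nearest were ZAT6 (AT5G04340), with a difference of 0.099, SIB1 (AT3G56710) with 0.109, ERF8 (AT1G53170) with 0.119, PDF1.2c (AT5G44430) with 0.128 and AT5G15950 with 0.131. ZAT6 had 17.3 and 11.7 CPM with MT, 6.34 and 7.46 CPM with IAA, and 5.95 and 4.85 CPM in the control. Their log2 fold changes with MT against control, from 1.10 to 1.42, come from the same values that chose them and are given as a description. The mean Ib profile contains many single-digit counts, so this ranking describes these libraries only. The Ib genes also differ among themselves, with centred control values of 0.71 and -0.85 for BHLH38 and -1.34 and -1.13 for BHLH101.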

How the data were processed

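Expression was measured by RNA sequencing in 6 libraries. Each library has 1 column of deposited counts, which are raw read numbers per gene. Per the submitters' processing notes reads were handled with HTSeq 0.6.1, TopHat2 2.0.12 and Bowtie2 2.2.3, and DESeq 1.18.0 is also named. For settings, genome build, annotation and use of strand, what was done is not given in the sources used here. Hence no sequences or coordinates are printed, and the TAIR10.1 annotation served only for symbols and for neighbouring or overlapping genes (23606 of 24267 identifiers matched, and all 10 of the genes described). A further 351 rows named as new genes stayed in library sizes and tests.

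The counts were fitted with edgeR 4.0.16 in R 4.3.3. Genes with low counts were removed by filterByExpr (21355 stayed), libraries were scaled by TMM, and 1 quasi-likelihood model with a term for group took all 6 libraries, leaving 3 residual degrees of freedom. Adjustment was by Benjamini-Hochberg across every gene tested, with 0.05 as threshold, and an adjusted p with no tool beside it comes from edgeR. A value with ± SE and no unit is a log2 fold change, its SE being the fold change over the root of its F statistic. Intervals from counts are exact binomial and, like floors for a count of 0, cover counting error only. Replicates differed far beyond counting noise (chi-square over its degrees of freedom 25.6 to 32.8), so counting error alone was not taken as the spread. Each library was treated as a sample, and this value cannot show whether replicates were grown apart. The fit was tested on simulated data.

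Alternatives were RLE or upper quartile factors, no filter, DESeq2 1.42.0, robust empirical Bayes, only the groups compared, a replicate block, and each library left out. DESeq2 without its independent filter was added after seeing the data. The 10 genes, the 4 lists and the markers were chosen with earlier results of these data known. Named were the 10 genes, every listed gene called, the 2 of each list with the smallest p of MT against control, and the 5 nearest genes, found with 0.1 CPM added before the log.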

Additional observations from a re-analysis of the deposited data

How the results depend on the processing

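Depth, 2 libraries in a group and the spread between them limit these results, and they were not ranked. BHLH38, BHLH39, BHLH100, BHLH101 and IRT1 had at most 45 counts in a library. The number of the 10 genes called was 0 under every setting run for IAA against control and for MT against IAA. For MT against control it was 1, the gene BHLH101. It was 0 with the replicate block and 0 to 1 with a library left out. It was also 0 with DESeq2, which gave BHLH101 no adjusted p because of its filter on low means (unadjusted p = 0.000131), and 1 without that filter (adjusted p = 0.00202). Among the 14 settings that gave it an adjusted p the call of BHLH101 was lost in 5, and its direction held in all.

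Signs turned for 10 values, none of them called. In IAA against control, with a library left out, BHLH101 had -0.11 (without IAA replicate 1) to 2.52, FIT -0.39 to 0.25 (without control replicate 1), with 0.066 without IAA replicate 1, and PYE -0.16 to 0.013 (without control replicate 2). IRT1 had -0.96 to 0.091 (without control replicate 1), FRO2 -0.11 (without IAA replicate 2) to 0.47 and FRO3 -0.094 to 0.0017 (without control replicate 2). In MT against control PYE had -0.0044 (without MT replicate 1) to 0.41 and FRO2 -0.047 (without control replicate 2) to 0.37. In MT against IAA FRO2 had -0.32 to 0.26 (without IAA replicate 2). The cause was not tested.

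Over all genes, IAA against control gave 71 calls, and 14 to 120 with a library left out, 794 with DESeq2 (789 without its filter), 130 with robust empirical Bayes and 109 with only these groups. The split of the DESeq2 calls was 428 higher and 366 lower, against 58 and 13 in edgeR. MT against control gave 1633, and 521 to 1304 with a library left out and 3010 with DESeq2 (2985 without its filter). MT against IAA gave 37, and 6 to 333 with a library left out, 76 without a filter on low counts, 1273 with DESeq2 (1236 without its filter), 142 with robust empirical Bayes, 6 with only these groups and 12 with the replicate block. Where a library is left out, the lone sample of its group is assumed to vary like the others.

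Libraries shared a replicate number, but nothing in the labels pairs them. Differences between replicate 1 and replicate 2 correlated across 18306 genes with r = -0.003 between IAA and control, 0.039 between MT and control and 0.102 between MT and IAA. With the replicate block 48 genes were called in IAA against control, 1325 in MT against control and 12 in MT against IAA, with 0 of the 10 genes in each.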

Other observations

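The MT libraries differed from each other in several of the genes described, and this was not confined to MT. The control libraries had 7.69 and 4.93 CPM for FIT and 0.447 and 0.214 CPM for IRT1, though 107 and 114 CPM for BTS. The genome-wide chi-square over its degrees of freedom was 30.0 with MT, 32.8 in the control and 25.6 with IAA. On the log2 scale with 0.1 CPM added, MT replicate 1 stood above MT replicate 2 by 1.35 for BHLH100, by 0.89 for BHLH38, by 0.40 for PYE, by 0.35 for BTS, by 0.34 for BHLH39, by 0.32 for FIT, by 0.12 for FRO3 and by 1.52 for AT2G30766. The values for BHLH101 and FRO2 were 0.05 and -0.01. IRT1 went the other way with -0.43. For PYE, BTS, FIT, FRO3 and AT2G30766, which lie above 2 CPM, the median absolute difference over tested genes of at least 2 CPM was 0.14. It is no measure for the other genes, whose counts are lower. The number of called genes in MT against IAA moved from 37 to 333 without MT replicate 2.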
